A study of Mus musculus with 3 samples.

Results

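The 8 genes described here are transcription factors of the cerebellar granule neuron lineage: *Atoh1*, *Barhl1*, *Pax6*, *Meis1*, *Neurod1*, *Neurod2*, *Nhlh1* and *Nhlh2*. They were taken by symbol from the deposited counts, and all 8 were among the 16181 genes listed. The libraries came from 3 *Eed* cKO mice (genotype Math1-Cre/Eed fl/fl, no treatment) at postnatal day 7 (P7), in which Cre under the *Atoh1* (Math1) promoter deletes *Eed* in granule neuron progenitors. The cerebellum from one side of the midline of each mouse was dissociated and run separately through Drop-seq, a droplet method that counts captured RNA molecules by unique molecular identifiers (UMIs). All samples share this genotype, so no value below compares *Eed*-deleted with *Eed*-intact mice, and WT cells were not analysed here.

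Cerebellar granule neuron progenitors (CGNPs) arise from the rhombic lip, divide in the external granule layer under Sonic hedgehog (SHH) signaling, and then leave the cell cycle to become cerebellar granule neurons (CGNs). The basic helix-loop-helix (bHLH) factor ATOH1 specifies this lineage and keeps CGNPs in the progenitor state. The homeobox factors BARHL1, PAX6 and MEIS1 act in CGNPs and their progeny, and the bHLH factors NEUROD1, NEUROD2, NHLH1 and NHLH2 are associated with neuronal differentiation. Class II bHLH proteins of this kind bind DNA as dimers at E-boxes, which have the sequence CANNTG.

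The cells were clustered without the 8 factors and without 52 further transcription factors that are reported below, so that none of the tested factors defined a cell group. After filtering, 918, 547 and 908 cells of mice 1, 2 and 3 remained, with medians of 919.5, 857 and 1408 UMIs per cell, and no barcode was shared between libraries. Marker genes named 14 of 15 clusters. CGNP/CGN-like cells numbered 1210. Of these, 682 were proliferating: 338 in cluster S, whose leading genes included the hemoglobin gene *Hbb-bs* and the SHH-responsive genes *Sfrp1* and *Ccnd1*, 213 in the replicating cluster R with 9 of 9 replication markers, and 131 in a mitotic cluster with 10 of 10 mitosis markers but only 2 of 10 CGNP markers. The other 528 were differentiating, 169 early and 359 late by their summed neuronal maturation markers. Cells outside the *Atoh1* lineage numbered 931, of which 526 were interneuron-like or interneuron progenitor-like (neural) and 405 were glial, vascular or myeloid (non-neural). A further 75 cells were myoid-like, expressing all 15 muscle markers. One cluster of 157 neuronal cells stayed unnamed because its 10 leading genes held 3 Purkinje cell markers and 1 CGN marker (over the whole lists, 4 Purkinje cell and 9 CGN markers were raised there), and 115 of these cells came from mouse 3. The counts of the targeted gene, *Eed*, were 17, 5 and 13 UMIs in CGNP/CGN-like cells and 25, 12 and 29 in cells outside the lineage, or 21.7 ± 7.97 and 65.2 ± 17.5 CPM (counts scaled so that every sum over a mouse's cell group comes to 1000000; mean ± SD, n = 3 mice; log2 fold change -1.45 ± 0.38 SE, edgeR adjusted p = 0.015).

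The sequences upstream of 4 of the factors are shown: *Atoh1* was highest in proliferating cells, whereas *Neurod2*, *Nhlh1* and *Nhlh2* were higher in differentiating cells. *Neurod1* and *Meis1* were also higher in differentiating cells and are not shown. Each run begins 250 bases before the RefSeq transcription start (GRCm38.p6, the assembly also called mm10) and ends before the first base that the GENCODE M21 gene covers. Capitals mark every CANNTG. The runs are chr6:64728875-64729124 (+ strand) for *Atoh1*, chr11:98329649-98329895 (- strand) for *Neurod2*, chr1:172057597-172057846 (- strand) for *Nhlh1* and chr3:102009895-102010075 (+ strand) for *Nhlh2*.
Atoh1: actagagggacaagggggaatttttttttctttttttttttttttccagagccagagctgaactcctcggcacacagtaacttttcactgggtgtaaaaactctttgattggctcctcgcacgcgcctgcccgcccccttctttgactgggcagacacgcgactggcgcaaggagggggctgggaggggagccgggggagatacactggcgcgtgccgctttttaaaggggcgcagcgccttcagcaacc
Neurod2: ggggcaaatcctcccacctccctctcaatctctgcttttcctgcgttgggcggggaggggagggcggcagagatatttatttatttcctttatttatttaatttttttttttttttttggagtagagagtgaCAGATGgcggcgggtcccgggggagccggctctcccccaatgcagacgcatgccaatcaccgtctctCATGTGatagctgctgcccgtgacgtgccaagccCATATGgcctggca
Nhlh1: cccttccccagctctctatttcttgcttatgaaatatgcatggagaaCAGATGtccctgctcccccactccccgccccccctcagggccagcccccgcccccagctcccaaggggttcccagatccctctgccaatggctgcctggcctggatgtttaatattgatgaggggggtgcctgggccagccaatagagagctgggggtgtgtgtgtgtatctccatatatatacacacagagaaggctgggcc
Nhlh2: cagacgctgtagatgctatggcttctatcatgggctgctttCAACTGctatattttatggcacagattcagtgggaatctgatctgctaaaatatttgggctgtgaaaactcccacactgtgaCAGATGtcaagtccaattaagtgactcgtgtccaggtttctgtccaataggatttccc

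Among these upstream windows, CANNTG was absent from that of *Atoh1*, and occurred 3 times before *Neurod2*, 1 time before *Nhlh1* and 2 times before *Nhlh2*. Of the windows not shown, those of *Neurod1* and *Meis1* each held 1 CANNTG, and that of the first *Pax6* start held 0. The variant CAGATG (which reads CATCTG on the other strand and is a special case of the E-box) was found 1 time before each of *Neurod2*, *Nhlh1* and *Nhlh2*, at 118, 203 and 127 bases upstream of the start. It was in none of the windows of the other 5 factors, *Neurod1* and *Meis1* among them, counting both start sites of *Barhl1* and *Pax6*. Over all 32851 RefSeq upstream windows of 250 bases, 66.2% held a CANNTG and 14.4% held a CAGATG on either strand. The other E-box variant searched, CAGCTG, was present in both *Barhl1* windows and in none of the others, against 13% of all windows. These matches describe the letters only.

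*Atoh1* was the factor most concentrated in proliferating cells. Its level in proliferating CGNP-like cells was 176, 149 and 104 CPM in mice 1, 2 and 3, and in differentiating cells it was 32.5, 31.4 and 31.1 CPM. The groups did not overlap, and the level was 4.41-fold higher in proliferating cells (log2 fold change 2.14 ± 0.35 SE, adjusted p = 9.97e-05, edgeR quasi-likelihood test with Benjamini-Hochberg adjustment over the 5058 genes tested; the other comparisons used the same test, each adjusted over its own genes). In cells with at least 1000 UMIs the log2 difference was 4.06 (adjusted p = 5.41e-05). Of all *Atoh1* UMIs in a mouse, 82.9 ± 9.22% lay in proliferating CGNP-like cells, which held 34.8 ± 10.9% of all UMIs.

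Of the 8 factors, 5 changed in the opposite direction: *Meis1*, *Neurod1*, *Neurod2*, *Nhlh1* and *Nhlh2* were lower in proliferating than in differentiating cells in 3 of 3 mice. Over all genes tested, 15.3% were lower in proliferating cells and 14% were higher. Unlike the 8 factors, genes not held out could themselves enter the clustering, which used 3000 variable genes. The median log2 difference was -1.36 over the 8 factors and -0.000421 over all genes. The bHLH gene *Neurod1*, a driver of granule neuron differentiation, had 752, 790 and 817 CPM in proliferating cells and 2407, 3764 and 3228 CPM in differentiating cells. It was thus 4.04-fold higher on differentiation (log2 -2.01 ± 0.19 SE, proliferating over differentiating, adjusted p = 2.25e-07). *Nhlh1*, a bHLH gene of newly formed neurons, showed the steepest fold among the 5, from 178, 141 and 110 CPM to 808, 714 and 618 CPM (5.01-fold, log2 -2.33 ± 0.23 SE, adjusted p = 3.13e-07). Its paralog *Nhlh2* rose from 253, 230 and 193 CPM to 835, 619 and 762 CPM (3.33-fold, log2 -1.73 ± 0.21 SE, adjusted p = 3.11e-06). The values of all 3 genes were higher in every differentiating sum than in any proliferating sum.

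*Neurod2*, a later neuronal bHLH gene, had lower counts, with 62.1, 89.6 and 37.5 CPM in proliferating cells and 184, 227 and 288 CPM in differentiating cells (3.91-fold, log2 -1.97 ± 0.30 SE, adjusted p = 4.41e-05). *Meis1*, a TALE homeobox gene, rose from 75.0, 76.8 and 141 CPM to 152, 196 and 226 CPM (1.98-fold, log2 -0.98 ± 0.28 SE, adjusted p = 0.0118). This call for *Meis1* was lost without mouse 1 (adjusted p = 0.0827) and without mouse 2 (adjusted p = 0.123). The homeobox genes *Barhl1* and *Pax6* did not pass the test. *Barhl1* had 359, 320 and 332 CPM against 396, 204 and 459 CPM, with a log2 difference of -0.12 (edgeR 95% interval -0.63 to 0.39, adjusted p = 0.759). *Pax6* had 365, 474 and 320 CPM against 352, 580 and 439 CPM, with a log2 difference of -0.26 (95% interval -0.73 to 0.21, adjusted p = 0.426).

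**Figure D1:**
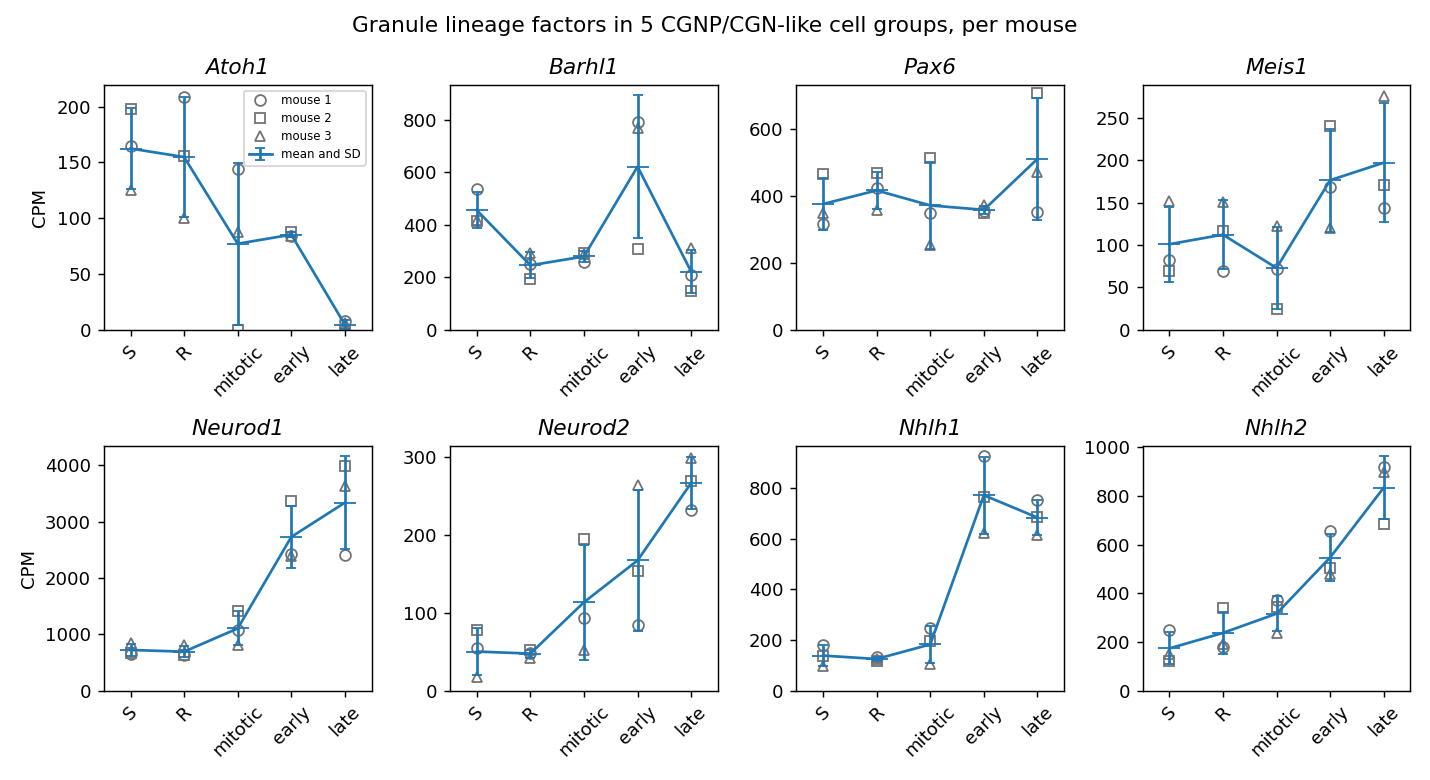
Level of each factor (y axis, CPM, linear, from 0) in 5 CGNP/CGN-like cell groups (x axis: clusters S and R, mitotic, early and late differentiating) in each of 3 mice, with the mean and SD over mice. *Atoh1* was at 0 to 7.99 CPM in late differentiating cells, *Barhl1* had 306 to 792 CPM in early differentiating cells, and *Neurod1*, *Nhlh1* and *Nhlh2* were each higher in both differentiating groups than in clusters S and R in 3 of 3 mice.

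Splitting the lineage into stages separated the factors further. Between other proliferating cells (clusters S and R) and early differentiating cells, 4 of 8 factors were higher in the early differentiating cells, against 6.2% of 3322 genes tested. These were *Nhlh1* (log2 -2.50 ± 0.27 SE, adjusted p = 4.06e-07), *Neurod1* (-1.92 ± 0.22 SE, adjusted p = 7.71e-07), *Nhlh2* (-1.44 ± 0.25 SE, adjusted p = 0.000248) and *Neurod2* (-1.80 ± 0.44 SE, adjusted p = 0.00524). The *Neurod2* call rested on 35 and 34 UMIs and was lost without mouse 3 (-0.94, adjusted p = 0.342). *Barhl1* had 394, 326 and 354 CPM in other proliferating cells and 792, 306 and 768 CPM in early differentiating cells. It was higher there in mice 1 and 3 but not in mouse 2, and did not pass the test (log2 -0.81 ± 0.28 SE, adjusted p = 0.0505), whereas it did with mice as blocks (adjusted p = 0.00137), without mouse 2 (adjusted p = 0.037), at clustering resolution 1.2 (adjusted p = 0.0327) and with the held-out genes put back (adjusted p = 0.0367). Without upper limits on UMIs and genes, its log2 difference was -0.21 (adjusted p = 0.737). That setting also redrew the groups: other proliferating cells numbered 347 instead of 551, and the mitotic cluster 327 instead of 131.

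Between early and late differentiating cells, 2 of 8 factors were lower in the late cells, against 3.73% of all genes tested. *Atoh1* was counted 16 times in early cells and 2 times in late cells, with 84.2, 87.6 and 84.0 CPM against 7.99, 0 and 5.75 CPM. The ratio of pooled levels was 16.2 (exact 95% interval 3.80 to 145, counting error only; log2 3.70 ± 0.88 SE, adjusted p = 0.00667). *Barhl1* fell to 208, 147 and 311 CPM (2.59-fold, log2 1.37 ± 0.30 SE, adjusted p = 0.00385) and was lower in late cells in 3 of 3 mice, although its lowest early value lay below its highest late value. Neither call held in every subset of mice. Without mouse 1 the adjusted p was 0.0641 for *Atoh1* and 0.137 for *Barhl1*, and without mouse 3 it was 0.0507 for *Atoh1*.

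Against 4.49% of all genes, 0 factors passed as higher in late cells by edgeR at the reported settings or by DESeq2, and 1 was under 0.05 before adjustment. That factor, *Nhlh2*, was higher in late cells in 3 of 3 mice (657, 503 and 480 CPM early, 919, 684 and 898 CPM late; log2 -0.71 ± 0.24 SE, adjusted p = 0.0651). It passed when cells were clustered at resolution 1.2 (adjusted p = 0.0471) and when the held-out genes were put back (adjusted p = 0.0305). With mice as blocks, 4 factors passed, adding *Nhlh2* (adjusted p = 0.00255) and *Neurod1* (log2 -0.38, adjusted p = 0.0193) as higher in late cells. The values of *Nhlh1* at both stages overlapped, 927, 766 and 624 CPM early and 751, 684 and 616 CPM late (log2 0.08, 95% interval -0.43 to 0.59, adjusted p = 0.911).

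Between mitotic and other proliferating cells, 0 of 8 factors passed the edgeR test, against 3.64% of all genes tested, and the DESeq2 Wald test also called 0. Before adjustment, 2 factors lay under 0.05 by edgeR, *Neurod1* and *Nhlh2*. *Neurod1* had 1081, 1415 and 811 CPM in mitotic cells and 642, 657 and 819 CPM in the others (log2 0.62 ± 0.22 SE, adjusted p = 0.17). It was the 1 factor to pass with mice as blocks (adjusted p = 0.00209), and it also passed without mouse 3 (log2 0.93, adjusted p = 0.00995) and at clustering resolution 1.2 (log2 0.74, adjusted p = 0.0356). At resolution 0.4 both groups were redrawn, with 340 mitotic and 506 other proliferating cells, and no cluster was named as differentiating. Cluster S and the early differentiating cells held 338 and 169 cells in the main clustering, so early cells may be among the 506, which was not counted. Between these groups *Neurod1* passed in the opposite direction (log2 -0.76, adjusted p = 0.015), as did *Nhlh1* (log2 -1.20, adjusted p = 0.00238), while *Barhl1* passed as lower (adjusted p = 0.00962). *Atoh1* was unevenly detected in mitotic cells, at 144, 0 and 87.2 CPM from 24 UMIs, against 186, 181 and 112 CPM (log2 -0.76 ± 0.42 SE, adjusted p = 0.518). Its log2 difference between the redrawn groups at resolution 0.4 was -0.0753 (adjusted p = 0.949).

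Outside the *Atoh1* lineage the factors fell into different patterns. Of the 8, 6 were higher in CGNP/CGN-like cells than in cells outside the lineage, against 3.81% of 7635 genes, and 1 was lower, against 8.68%. The median log2 difference was 1.80 over the 8 factors and 0.02 over all genes. *Barhl1* had 371, 279 and 386 CPM in the lineage and 31.0, 33.1 and 14.2 CPM outside it (14.9-fold, log2 3.90 ± 0.30 SE, adjusted p = 1.28e-07). *Atoh1* had 130, 108 and 72.9 CPM in the lineage and 0, 19.9 and 4.72 CPM outside, where 6 UMIs were counted in 931 cells (18.3-fold, log2 4.19 ± 0.54 SE, adjusted p = 3.05e-05). That log2 difference was 3.43 without mouse 1 and 4.98 without mouse 2, and passed in both cases. Both were low in interneuron-like and in non-neural cells alike. *Neurod1* (5.80-fold, adjusted p = 1.78e-07), *Nhlh1* (3.88-fold, adjusted p = 1.66e-05) and *Pax6* (3.11-fold, adjusted p = 4.22e-05) were also higher in the lineage in 3 of 3 mice. *Meis1* was 1.81-fold higher (adjusted p = 0.0445), a call lost when any 1 of the 3 mice was left out (adjusted p between 0.12 and 0.202). It was also lost with the DESeq2 Wald test (adjusted p = 0.111) and in cells with at least 1000 UMIs (adjusted p = 0.295). The same held at clustering resolution 1.2 (adjusted p = 0.0511) and at resolution 0.4 (adjusted p = 0.16), where the lineage held only clusters named proliferating.

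**Figure D2:**
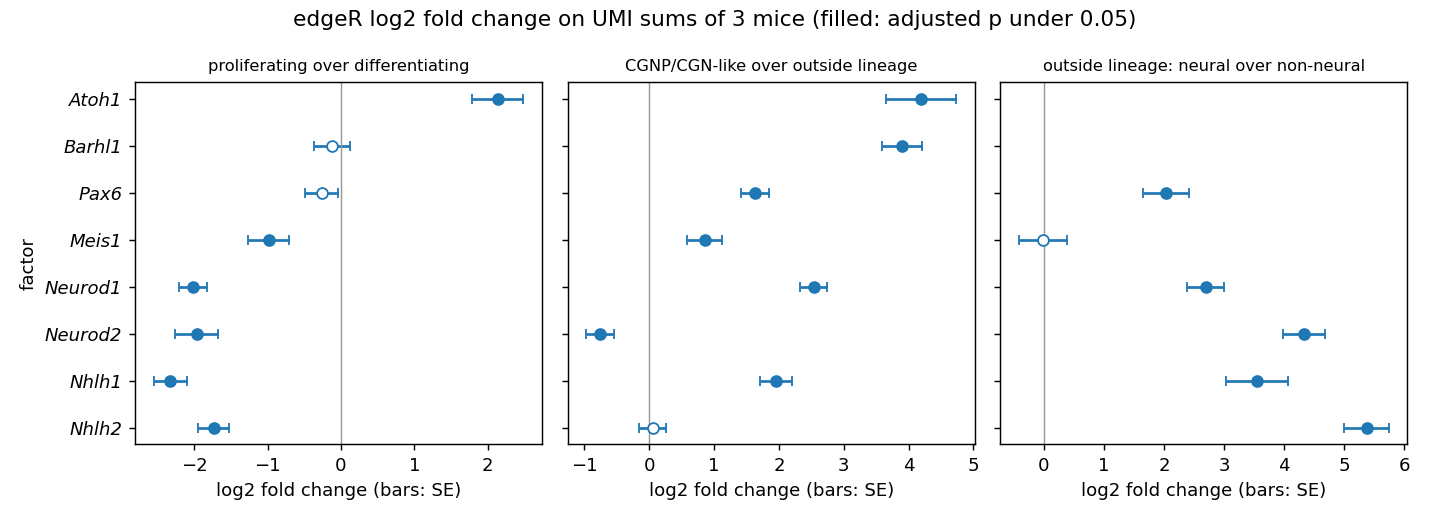
Log2 fold change (x axis) with its SE of each factor (y axis) in 3 comparisons of UMI sums from 3 mice, filled where the adjusted p was under 0.05. *Atoh1* lies alone on the proliferating side in the left panel, and *Neurod2* alone past the threshold on the side of cells outside the lineage in the middle panel. *Atoh1* and *Barhl1* have no point in the right panel, having too few UMIs there to be tested.

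*Neurod2* and *Nhlh2* were not restricted to the lineage after which the 8 factors are named here. *Neurod2* was lower in CGNP/CGN-like cells, with 102, 138 and 144 CPM against 214, 185 and 233 CPM outside (log2 -0.76 ± 0.22 SE, adjusted p = 0.0275). This call was lost when any 1 of the 3 mice was left out (adjusted p between 0.0678 and 0.294), with the DESeq2 Wald test (adjusted p = 0.0637) and without upper limits on UMIs and genes (adjusted p = 0.0542). It was also lost under both alternatives chosen after the clusters were seen, with the unnamed neuronal cluster counted in the lineage (log2 -0.46, adjusted p = 0.328) and with the mitotic cluster left out of it (log2 -0.69, adjusted p = 0.0595). The call held in 7 of 14 alternatives. The difference was larger at resolution 0.4 (log2 -1.40, adjusted p = 0.000385), where the lineage held only clusters named proliferating. *Nhlh2* had 441, 368 and 436 CPM in the lineage and 333, 338 and 507 CPM outside (log2 0.05, 95% interval -0.38 to 0.48, adjusted p = 0.92).

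The factors found outside the lineage were mostly in its neural cells. Between neural and non-neural cells outside the lineage, 5 of the 6 factors with enough UMIs to be tested were higher in neural cells, against 12.8% of 4129 genes. *Nhlh2* had 686, 803 and 863 CPM in neural cells and 5.43, 32.9 and 18.7 CPM in non-neural cells (41.5-fold, log2 5.38 ± 0.37 SE, adjusted p = 5.65e-11). *Neurod2* had 422, 452 and 389 CPM against 21.7, 11 and 18.7 CPM (20.1-fold, log2 4.33 ± 0.36 SE, adjusted p = 7.76e-10). *Nhlh1*, *Neurod1* and *Pax6* were 11.7-fold, 6.48-fold and 4.11-fold higher in neural cells (adjusted p = 5.46e-06, 1.5e-07 and 0.000135). Of the 7 non-neural UMIs of *Nhlh1*, 6 were from mouse 3, and its log2 difference was 3.55 with all mice, 2.97 without mouse 1 and 5.18 without mouse 3. *Meis1* was the exception among those tested, at 82.5 ± 15.8 CPM in neural and 62.7 ± 39.5 CPM in non-neural cells (log2 -0.02, 95% interval -0.84 to 0.81, adjusted p = 0.987).

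Interneurons of the cerebellum come from the ventricular zone and are defined by *Pax2* and *Gad1*. In interneuron-like cells *Nhlh2* was at 875 ± 31.1 CPM, close to its 834 ± 130 CPM in late differentiating CGNP/CGN-like cells, and in interneuron progenitor-like cells at 696 ± 109 CPM. *Neurod2* reached 572 ± 48.7 CPM in interneuron-like cells, and its 3 values there lay above those of every other cluster. It had 254 ± 51.7 CPM in their progenitors, a level within the spread of late differentiating cells (267 ± 33.7 CPM). In each mouse, 42.4 ± 7.35% of *Neurod2* UMIs and 35.5 ± 12.9% of *Nhlh2* UMIs were in neural cells outside the lineage, which held 17.3 ± 6.43% of all UMIs.

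A UMI of *Nhlh2* was seen in 48.1 ± 8.07% of interneuron-like cells (36.8% when each cell was thinned to 500 UMIs), against 2.45 ± 1.61% of non-neural cells (0.215% thinned), with median depths of 885.5 and 1047 UMIs. The corresponding shares for *Neurod2* were 35.1 ± 4.76% (20.3% thinned) and 2.06 ± 0.77% (0.821% thinned). *Barhl1*, a lineage gene with few UMIs elsewhere, was seen in 2.94 ± 1.69% of interneuron-like cells and 2.83 ± 0.82% of non-neural cells. *Neurod1* was seen in 32.5 ± 8.35% of interneuron-like and 7.31 ± 1.31% of non-neural cells, the latter above the non-neural shares of *Nhlh2*, *Neurod2* and *Barhl1*.

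*Pax6* and *Meis1* were also counted in cells outside the lineage. *Pax6* was at 285, 433 and 348 CPM in interneuron progenitor-like cells, overlapping its range in each proliferating and differentiating CGNP/CGN-like group, and at 92.3, 164 and 88.4 CPM in interneuron-like cells, below all 3 progenitor values. In astrocyte-like cells it was uneven, at 215, 0 and 115 CPM from 21 UMIs. *Meis1* was at 191, 119 and 230 CPM in astrocyte-like cells, overlapping its values in early and late differentiating cells, and at 76.9, 136 and 54.0 CPM in interneuron-like cells. It was at 12 to 35.5 CPM on average in oligodendrocyte-like, vascular fibroblast-like, myeloid-like and pericyte-like cells, each from 1 to 4 UMIs. No *Meis1* UMI was found in 52 endothelial-like cells.

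**Figure D3:**
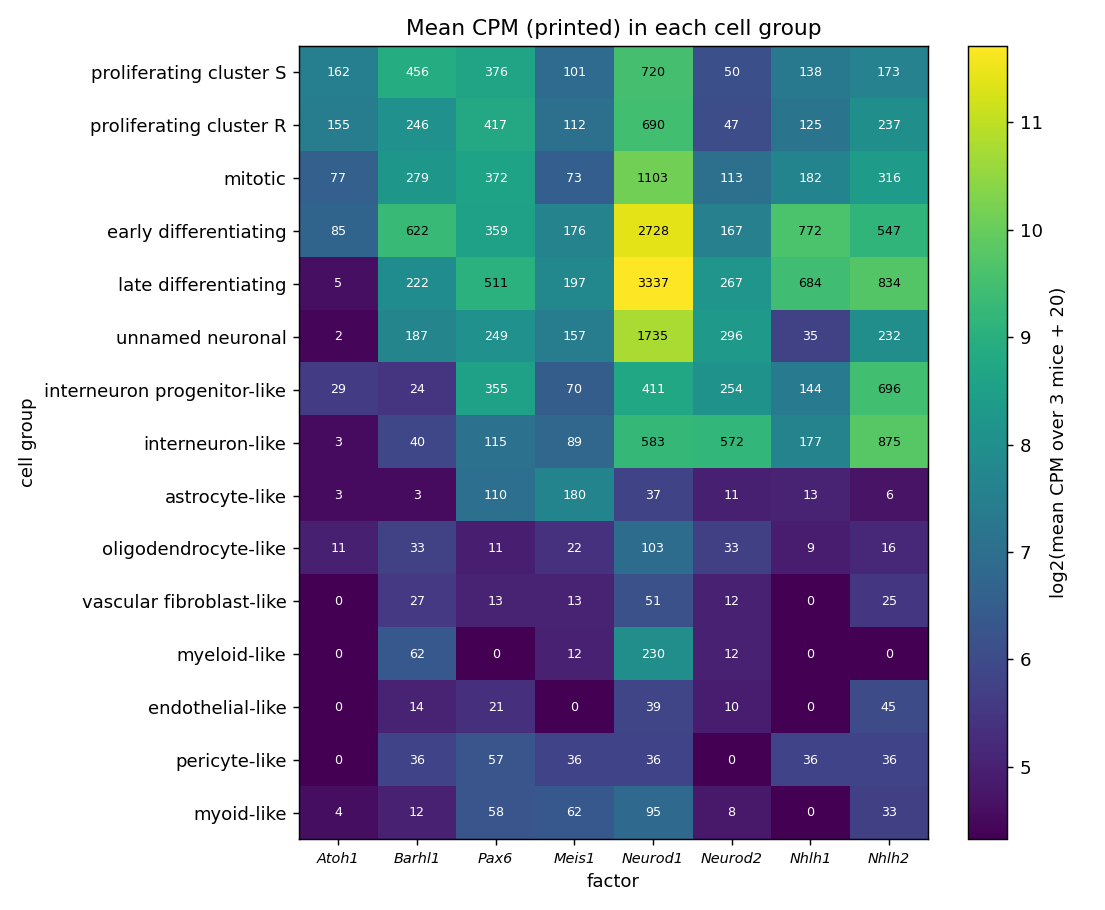
Mean CPM over 3 mice (printed numbers) of each factor (columns) in 15 cell groups (rows), coloured by log2(mean CPM + 20). *Neurod1* is at 2728 and 3337 CPM in early and late differentiating cells, *Nhlh2* at 875 CPM in interneuron-like cells, and *Atoh1* is above 50 CPM only in 4 CGNP/CGN-like groups.

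The unnamed neuronal cluster combined a high *Neurod1* level with little *Nhlh1*. It had 1731, 1273 and 2202 CPM of *Neurod1*, and 26.2, 0 and 78.8 CPM of *Nhlh1* from 18 UMIs, whereas early and late differentiating cells had between 616 and 927 CPM of *Nhlh1*. *Nhlh2* was at 236, 255 and 204 CPM, below its range in both differentiating groups, and *Neurod2* at 367, 127 and 394 CPM, overlapping them. These differences were not tested, and mouse 2 gave only 6 of the 157 cells.

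Myoid-like cells, which express muscle genes in these *Eed*-deleted cerebella, had low levels of nearly all factors. Of the 8, 7 were lower in myoid-like than in CGNP/CGN-like cells, against 11.9% of 4808 genes. The median log2 difference over all genes was -0.11, and -0.17 with DESeq2 size factors, so small differences here are relative to that shift. No *Nhlh1* UMI was found in 75 cells with 142297 UMIs, which is at least 16.6-fold lower than in CGNP/CGN-like cells, taking a limit of 3 counts over the group. *Neurod1* was at 100, 99.0 and 85.2 CPM (17.3-fold lower, log2 -4.11 ± 0.36 SE, adjusted p = 2.6e-12), compared with 76.8 ± 32.4 CPM in non-neural cells outside the lineage. *Atoh1*, *Barhl1* and *Neurod2* had 1, 3 and 1 UMIs, with ratios of pooled levels of 14.5 (exact 95% interval 2.57 to 578), 16.9 (5.74 to 82.0) and 18.1 (3.20 to 717). The *Atoh1* UMI and all 3 of *Barhl1* came from mouse 3 and that of *Neurod2* from mouse 1, so that without that mouse each count was 0 and the intervals do not include this spread. The log2 difference of *Atoh1* was -3.74 with all mice and -3.08 without mouse 1. *Pax6* (6.21-fold lower, adjusted p = 1.76e-05) and *Nhlh2* (11.3-fold lower, adjusted p = 4.14e-07) were also lower, with log2 differences of -2.63 and -3.50 that were -3.46 without mouse 1 and -4.57 without mouse 3. *Meis1* had 50.04, 49.5 and 85.2 CPM against 99.8, 119 and 177 CPM and did not pass (log2 -0.87 ± 0.50 SE, adjusted p = 0.248). Without upper limits on UMIs and genes, the log2 differences of *Atoh1*, *Neurod2*, *Nhlh1* and *Nhlh2* were -3.02, -3.35, -4.18 and -2.36, and all passed. The *Neurod2* call was lost without mouse 3 (log2 -2.80, adjusted p = 0.0922).

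**Figure D4:**
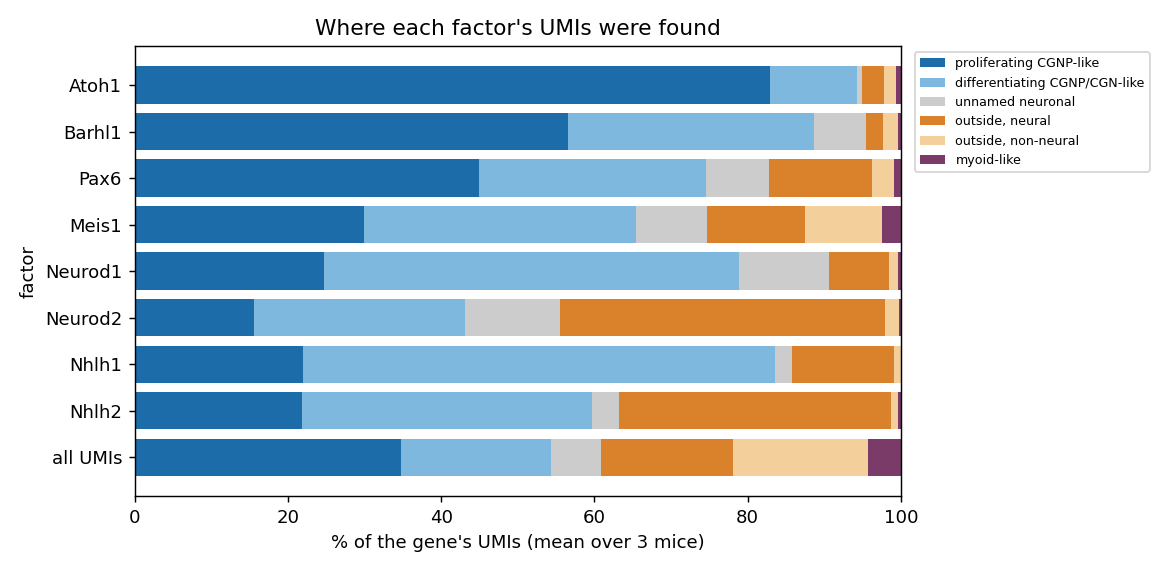
Share of each factor's UMIs (x axis, %, mean over 3 mice) found in each class of cells, with the share of all UMIs in the bottom bar. Proliferating CGNP-like cells held 82.9% of *Atoh1* UMIs, differentiating cells 61.7% of *Nhlh1* UMIs, and neural cells outside the lineage 42.4% of *Neurod2* UMIs.

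In the lineage, 87.9 ± 2.76% of cells had a UMI of at least 1 of the 8 factors (72.9% thinned), with 2 factors per cell in the median. The share was 82.4 ± 0.64% in interneuron-like cells (66.1% thinned) and 23.8 ± 5.76% in non-neural cells (10.8% thinned). *Atoh1* was seen in 125 of 1210 cells and *Neurod1* in 635, and 48 cells had both, where the product of their shares within each mouse gives 65.4. After thinning, 9 cells had both and the product was 18.8. Within proliferating cells alone the numbers were 40 and 44.8, or 7 and 10.5 after thinning. *Nhlh1* and *Nhlh2* were seen together in 153 cells, against a product of 98.6, or 41 against 32.6 after thinning. Within differentiating cells the thinned numbers were 36 and 39.1, and within proliferating cells 5 and 4.15. Deeper cells show more of every gene, and these counts were not tested.

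Other bHLH factors and their partners moved in mixed directions. Of 20 genes listed, 10 could be tested between proliferating and differentiating cells, of which 3 were higher and 3 lower in proliferating cells (14% and 15.3% of all genes tested), with a median log2 difference of 0.31 against -0.000421 for all genes. *Hes1*, a repressor of neuronal differentiation, was at 124 ± 7.67 CPM in proliferating and 17.3 ± 16.4 CPM in differentiating cells (log2 2.64 ± 0.44 SE, adjusted p = 0.000132). *Tcf12*, which encodes an E protein that dimerizes with neuronal bHLH factors, rose on differentiation (155 ± 16.8 to 315 ± 65.6 CPM, adjusted p = 0.00143), as did *Neurod6* (13.4 ± 6.89 to 89.5 ± 59.0 CPM, adjusted p = 0.000714). Against cells outside the lineage, 3 of 17 tested were higher and 8 lower in CGNP/CGN-like cells (3.81% and 8.68% of all genes tested). The largest differences were those of *Id3*, which encodes an inhibitor of bHLH dimers (7.89 ± 7.49 CPM against 243 ± 103 CPM, adjusted p = 8.57e-07), the proneural gene *Neurog1* (1.72 ± 1.75 against 55.6 ± 22.0 CPM, adjusted p = 2.07e-05) and the Notch target *Hes5* (7.15 ± 3.85 against 133 ± 96.8 CPM, adjusted p = 1.39e-05).

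Most tested genes listed here as other rhombic lip and granule neuron factors were higher on differentiation, and the list was not restricted to genes specific to the lineage. Of 22 genes in the files, 18 were tested, 12 were lower in proliferating than in differentiating cells and 0 were higher by edgeR, by DESeq2 or before adjustment (15.3% and 14% of all genes tested by edgeR), with a median log2 difference of -1.12. The largest were those of the zinc finger genes *Myt1l* (29.6 ± 13.9 to 472 ± 42.2 CPM, adjusted p = 8.72e-09), *Myt1* (30.4 ± 4.54 to 391 ± 32.3 CPM, adjusted p = 5.87e-09) and *St18* (63.1 ± 30.6 to 389 ± 44.9 CPM, adjusted p = 1.33e-06). Of the 16 tested between other proliferating and early differentiating cells, 10 were higher in the early cells, against 6.2% of all genes tested. Against cells outside the lineage, 6 were higher and 0 lower by edgeR and by DESeq2 (9 and 0 before adjustment), against 3.81% and 8.68% of all genes tested by edgeR, with a median log2 difference of 0.47 against 0.02 for all genes. *Uncx* (209 ± 28.2 against 13.5 ± 5.57 CPM, adjusted p = 1.17e-07), the *Barhl1* paralog *Barhl2* (92.0 ± 33.5 against 3.98 ± 3.46 CPM, adjusted p = 1.32e-05) and *En1* (108 ± 17.7 against 16.9 ± 5.07 CPM, adjusted p = 1.84e-05) differed most. Of the TALE homeobox factors related to *Meis1*, 10 were in the files, 3 could be tested between proliferating and differentiating cells and 6 against cells outside the lineage, and 0 passed in either comparison by edgeR or by the DESeq2 Wald test, with 0 and 1 under 0.05 before adjustment (median log2 differences -0.30 and 0.28).

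The genes whose levels ran most nearly parallel to each factor were sought by Pearson correlation of log2(CPM + 20) over 42 sums of a cluster and a mouse, among 4278 other genes with at least 50 CPM. Sums of one mouse share a library, and these values are descriptions. *Atoh1* was most like *Sfrp1*, an SHH-responsive gene (r = 0.76), and was also like *Ppp2r2c* (0.74) and the cell cycle inhibitor gene *Cdkn2a* (0.73). *Barhl1* was most like *Gm2694* (0.88), *Mab21l2* (0.88) and *Nrn1* (0.87). *Pax6* was most like *Lhx1* (0.85), *Apba2* (0.83) and *Igfbpl1* (0.81), and *Meis1* most like *Cd24a* (0.81), *Nfix* (0.75) and *Nfib* (0.73). *Neurod1* and *Nhlh2* shared *Gm11223* (0.85 and 0.91) and the tubulin regulator gene *Stmn1* (0.84 and 0.86), followed by *Crmp1* (0.84) for *Neurod1* and by *Nfib* (0.85) for *Nhlh2*. *Nhlh1* was most like *Igfbpl1* (0.87), *Ddah2* (0.84) and *Insm1* (0.84), and *Neurod2* most like *Gdap1* (0.89), *Scrt1* (0.86) and *Kif5c* (0.85).

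All 8 genes are protein coding. In GENCODE M21, *Atoh1* lies at chr6:64729125-64731245, *Barhl1* at chr2:28907679-28916668, *Pax6* at chr2:105668900-105697364, *Meis1* at chr11:18879817-19018985, *Neurod1* at chr2:79452521-79456751, *Neurod2* at chr11:98325415-98329648, *Nhlh1* at chr1:172052292-172057573 and *Nhlh2* at chr3:102010076-102015492. The *Neurod1* gene lies within the span of *Cerkl* on the same strand, and *Cerkl* was counted 132 times over all barcodes beside 3994 times for *Neurod1*. Antisense or opposite-strand genes overlapping *Pax6*, *Meis1* and *Neurod1* had 3 to 18 UMIs each. How reads in such overlaps were assigned is not given in the sources used here.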

How the data were processed

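Cerebella of 3 *Eed* cKO mice were profiled by Drop-seq, 1 library per mouse. The deposited tables hold whole-number UMI counts for each gene in each cell barcode, not normalized (the submitters' processing notes name STAR and mm10, without versions). The 8 factors and the gene lists were chosen with earlier results of these data known. Cells had at least 500 UMIs and 200 genes, at most 4 SD above each mouse's medians and at most 10% of UMIs from mitochondrial genes, which left 2373 of 3481 barcodes holding 1003741, 540816 and 1536645 UMIs. No doublet caller was run beyond the upper limits. Genes found in 30 or more cells entered sctransform 0.4.2, and cells were clustered in Seurat 5.3.0 (R 4.3.3; 15 principal components, resolution 0.8), leaving out the 60 genes to be tested. Clusters were named by a rule set after they were seen: at least 3 markers of 1 type, each in at least 10% of cells and 2 times the level elsewhere. The mitotic cluster, with 2 CGNP markers and none of the differentiating CGN list, was counted as CGNP-like only because replication and mitosis markers were added to its CGNP markers, and an alternative left it out.

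UMIs were summed per mouse and cell group and tested with edgeR 4.0.16 (quasi-likelihood test with TMM factors and filterByExpr, p adjusted by Benjamini-Hochberg across every gene tested, threshold 0.05), or with DESeq2 1.42.0 as an alternative. The 4 stages of the lineage shared 1 fit. Each SE was derived as log2 fold change over the root of the F statistic. The groups compared share animals, and the deviations of same-mouse sums from group means correlated at 0.0926 to 0.402 across genes, so a fit with mice as blocks was an alternative. The edgeR intervals include the spread between mice, whereas the exact ratio intervals and the limits for 0 counts cover counting error only. The genes named are the 8 factors, the 3 of each list with the largest change past the threshold in each of 2 comparisons, and the 3 genes most like each factor.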

Additional observations from a re-analysis of the deposited data

How the results depend on the processing

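Of 676 fold changes of the 8 factors under 14 alternatives, 618 kept their direction and side of the threshold, 21 lost a call, 12 gained one and 25 changed sign, none of the latter among 399 that started from a call. The cause of these changes was not tested. With mice as a replicate block, 1 factor passed between mitotic and other proliferating cells and 4 between early and late cells; beyond these and *Barhl1*, the pairing changed no call. Blocking raised the calls over all genes from 121 to 232, 455 to 691, 273 to 454 and 954 to 1550 in the mitotic, early, late and outside-lineage comparisons. Leaving out 1 mouse gave 5 to 6 factors past the threshold for proliferating against differentiating cells, 0 to 1 for mitotic, 3 to 5 for other proliferating against early, 0 to 2 for early against late, 5 for lineage against outside, 6 to 7 for myoid-like and 5 for neural against non-neural cells, and, without mouse 1, as few as 62 genes for mitotic and 96 for early against late. Without mouse 1, calls over all genes fell from 1480 to 909 for proliferating against differentiating cells. They also fell from 455 to 202 for other proliferating against early and from 954 to 547 for lineage against outside. Without mouse 3, calls for myoid-like cells fell from 998 to 522. Without a low-count filter, 1569 genes passed against cells outside the lineage and 2075 between neural and non-neural cells. The edgeR fit on cells with at least 1000 UMIs gave 955, 616 and 509 calls for proliferating against differentiating, lineage against outside, and neural against non-neural. Without the upper limits, 264 genes passed between other proliferating and early cells, where the first group held 347 cells instead of 551.

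At resolution 0.4 the mitotic cluster held 340 cells instead of 131, and the other proliferating cluster held 506, so different groups were compared. In the main clustering, cluster S and the early differentiating cells held 338 and 169 cells. Early cells may therefore be among the 506, and their number was not counted. There, 3 factors passed between mitotic and other proliferating cells (250 genes in all), *Neurod1* and *Nhlh1* with a changed sign, and at resolution 1.2, 1 did. At resolution 0.4 no cluster could be named as differentiating, so 3 comparisons gave no value and the lineage held only clusters named proliferating. The sign changed there for *Nhlh2* (-0.13), *Neurod2* (-0.46), *Neurod1* (-0.76), *Nhlh1* (-1.20) and *Pax6* (0.10) between these redrawn mitotic and other proliferating clusters. It also changed for *Nhlh2* against cells outside (-0.54). With at least 1000 UMIs per cell, early and late stages could not be separated, and *Nhlh1* (-0.24) and *Meis1* (0.20) changed sign in mitotic cells and *Barhl1* (0.37) between proliferating and differentiating cells. Without upper limits, where the mitotic cluster held 327 cells, these were *Meis1* in mitotic cells (0.11) and between neural and non-neural cells (0.32), and *Barhl1* (0.0175). Between neural and non-neural cells *Meis1* also changed sign with the DESeq2 Wald test (0.0624), no filter (0.0363), resolution 1.2 (0.0270) and held-out genes put back (0.0264), and *Nhlh1* between early and late cells with the last 3 (-0.0153, -0.0137 and -0.28). Counting the unnamed cluster as late, *Barhl1* (0.0753) and *Nhlh2* against cells outside (-0.0385) changed sign. Over fits that left out 1 mouse, *Nhlh2* against cells outside ranged from -0.10 to 0.25 (lowest without mouse 1), *Meis1* between early and late cells from -0.68 to 0.28, *Pax6* in mitotic cells from -0.23 to 0.0136 and *Barhl1* between proliferating and differentiating cells from -0.31 to 0.14 (each highest without mouse 3). Leaving the mitotic cluster out of the lineage, chosen after the clusters were seen, ended 1 call, that of *Neurod2* against cells outside. Depth limits *Atoh1*, *Meis1* and *Neurod2* most, with 165, 350 and 548 UMIs in all cells.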
